A study of Mus musculus with 6 samples.

Results

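The receptor chains for interleukin-3 (IL-3), granulocyte-macrophage colony-stimulating factor (GM-CSF) and granulocyte colony-stimulating factor (G-CSF) were described in mouse LSK cells, bone marrow cells that lack lineage markers and carry Sca-1 and Kit, among which stem cells and early progenitors are found. The set held 8 genes, Csf2rb, Csf2rb2, Csf2ra, Il3ra, Csf3r, Il5ra, Il6ra and Il6st, of 12393 genes named by exactly 1 symbol on the array. They were measured by 12 probe sets of the 20380 with 1 symbol. The members were chosen by family with their knockout against wild-type differences in signal on these same arrays in view. Their differences are therefore given as a description, with no p-value. Which members passed in the fit over all probe sets is stated once as such a description, and supports nothing.

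LSK cells labelled as coming from Gfi1 knockout mice were compared with LSK cells labelled as coming from wild-type mice, with 3 single-colour Affymetrix arrays per group and sample numbers 5, 7 and 8 in each. Both groups were sorted by flow cytometry, and their RNA went through 2 rounds of amplification from 10 ng. The labels name no knockout allele, strain or age and do not say whether mice were pooled or whether the samples were separate mice, so the errors measure the spread between these samples. Gfi1 is a zinc finger repressor of transcription needed for granulocytes, lymphocytes and stem cells to form and persist.

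IL-3, GM-CSF and IL-5 each bind a specific alpha chain, which joins a beta chain that carries the signal. In the mouse, Csf2rb encodes the common beta chain that all 3 ligands use, and Csf2rb2 encodes another, closely similar beta chain that works with the IL-3 receptor alone. The G-CSF receptor, Csf3r, signals as a dimer of 1 kind of chain, and the IL-6 receptor joins an alpha chain, Il6ra, to gp130, encoded by Il6st. These receptors lack a kinase of their own and act through JAK kinases and STAT factors, and they support the survival, growth and differentiation of myeloid progenitors.

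Before the members, the arrays were checked. The median signal of an array was 286 to 335 in arbitrary MAS5 units, and 67.0% to 74.4% of probe sets lay above the array's brightest Bacillus control, which had a signal of 100.2 to 162. These are the controls meant below. Gfi1 had signals of 692, 1163 and 1737 on knockout arrays 5, 7 and 8, against 632, 608 and 723 on wild-type arrays 5, 7 and 8, a difference of 0.76 ± 0.28 (SE) on the log2(signal + 16) scale that did not pass (limma adjusted p = 0.148, and 0.0354 to 0.466 over its alternatives). The targeted gene was thus not lower on the arrays labelled knockout, and whether its probe set lies in a deleted part was not given. The directions below rest on the labels, and "knockout" stands for arrays labelled knockout.

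The LSK label was compared with its markers. Of the sort's defining genes, Kit averaged 4225 ± 624 in knockout and 6899 ± 960 in wild-type cells, and the progenitor antigen Cd34 averaged 16026 ± 2496 in knockout and 17248 ± 2783 in wild-type cells (SD, n = 3 each), all far above the controls. Ly6a, which encodes Sca-1, was not analysed here. Of 10 LSK markers tested, 0 rose and 3 fell (Kit, Flt3 and Hlf). The summed signal was 35872 to 40430 in knockout and 49180 to 55666 in wild-type arrays. No LSK marker lay at or below the controls on all 6 arrays. Some lineage genes were bright as well. The B and plasma cell markers Ighm and Jchain averaged 43621 and 16595 in knockout and 47643 and 16171 in wild-type cells. The neutrophil marker Ngp averaged 608 in knockout and 6627 in wild-type cells. Others, among them Pax5 and Cd4, lay at or below the controls on all 6 arrays. What these signals mean for the label was not tested.

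Promoter sequence was available for 7 of the 8 members from RefSeq on GRCm38.p6, from 250 bases before to 50 bases after the transcription start. The window of Csf2rb2, the beta chain with the largest difference, is printed with those of Il3ra, its IL-3 partner chain, and Csf3r, a chain whose groups overlapped, so that the letters beside a large and a small difference can be seen. All run 5′ to 3′ on the strand of the gene. Capitals mark AATC, the core of the Gfi1 motif, and GAGGAA, a purine-rich core bound by PU.1, on either strand. Csf2rb2 lies on the minus strand at chr15:78305672-78305971, Il3ra on the plus strand at chr14:14346245-14346544 and Csf3r on the plus strand at chr4:126024409-126024708.
Csf2rb2: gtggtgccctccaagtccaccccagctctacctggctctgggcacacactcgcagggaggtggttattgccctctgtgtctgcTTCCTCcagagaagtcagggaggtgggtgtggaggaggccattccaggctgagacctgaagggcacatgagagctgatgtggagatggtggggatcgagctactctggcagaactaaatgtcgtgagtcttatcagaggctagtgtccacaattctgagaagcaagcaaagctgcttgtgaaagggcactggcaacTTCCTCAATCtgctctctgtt
Il3ra: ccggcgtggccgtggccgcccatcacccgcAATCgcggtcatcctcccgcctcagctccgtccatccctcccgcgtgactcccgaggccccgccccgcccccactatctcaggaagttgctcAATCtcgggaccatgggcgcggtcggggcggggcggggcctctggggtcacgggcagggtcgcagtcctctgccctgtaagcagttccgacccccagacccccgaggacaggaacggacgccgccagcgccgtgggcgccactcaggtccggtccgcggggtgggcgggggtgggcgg
Csf3r: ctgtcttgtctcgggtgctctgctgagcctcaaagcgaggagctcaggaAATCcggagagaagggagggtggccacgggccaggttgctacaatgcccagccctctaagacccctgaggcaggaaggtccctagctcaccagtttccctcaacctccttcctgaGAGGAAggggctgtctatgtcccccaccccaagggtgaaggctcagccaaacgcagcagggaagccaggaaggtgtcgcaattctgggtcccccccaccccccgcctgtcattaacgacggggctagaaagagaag

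The Gfi1 core stood in the Csf2rb2 window at bases 36 to 39 after the start, directly behind a PU.1 core on the opposite strand at bases 30 to 35. A further PU.1 core lay on that strand at -167 to -162. The Il3ra window held 2 Gfi1 cores and 0 matches to GAGGAA, the only PU.1 word searched. That of Csf3r held 1 of each, at -201 to -198 and at -86 to -81. The short Gfi1 core was found in 73.1% and the PU.1 core in 28.3% of 32851 promoter windows of the same length, so both are common. The C/EBP core TTGCNNAA occurred in Il3ra alone among the 7 members, where it overlaps a Gfi1 core, and in 10.8% of all windows. A form of the GATA motif, AGATAA, occurred in the windows of Il5ra and Il6ra and in 11.2% of all. Other forms of that motif were not searched. A match describes letters, not a bound site.

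Both beta chains had several times the signal in knockout LSK cells that they had in wild-type cells, and no alpha chain had a difference of that size. Csf2rb2, the IL-3 beta chain, had signals of 6537, 8186 and 8791 on knockout arrays 5, 7 and 8, against 1954, 1620 and 1495 on wild-type arrays 5, 7 and 8. The lowest knockout array was above the highest wild-type array by a wide margin. The mean was 7838 ± 1167 in knockout and 1690 ± 238 in wild-type cells (SD, n = 3 each), a ratio of 4.64, or 2.20 ± 0.18 (SE) as a log2 difference. Between arrays of the same number the difference was 1.73, 2.33 and 2.54 for numbers 5, 7 and 8.

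Csf2rb, the common beta chain, gave 1053, 1599 and 1328 on knockout arrays 5, 7 and 8, and 278, 264 and 368 on wild-type arrays 5, 7 and 8. Here too the groups stood apart, with no array of one group among those of the other. The mean was 1327 ± 273 in knockout and 303 ± 56.3 in wild-type cells (SD, n = 3 each), a ratio of 4.37, or 2.07 ± 0.23 (SE) as a log2 difference. By sample number the differences were 1.86, 2.53 and 1.81. The difference of each beta chain lay within 1 SE of the other's. Their transcripts are closely similar, and whether one gene's RNA reaches the other's probe set was not tested.

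A further probe set that the annotation assigns jointly to Csf2rb2 and Csf2rb is outside the set by its rule. It read 38.8, 57.4 and 249 in knockout samples 5, 7 and 8, against 36.2, 59.8 and 21.9 in wild-type samples 5, 7 and 8. It lay above the controls on knockout array 8 alone, so on 5 of the 6 arrays it gave no signal above background.

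**Figure D1:**
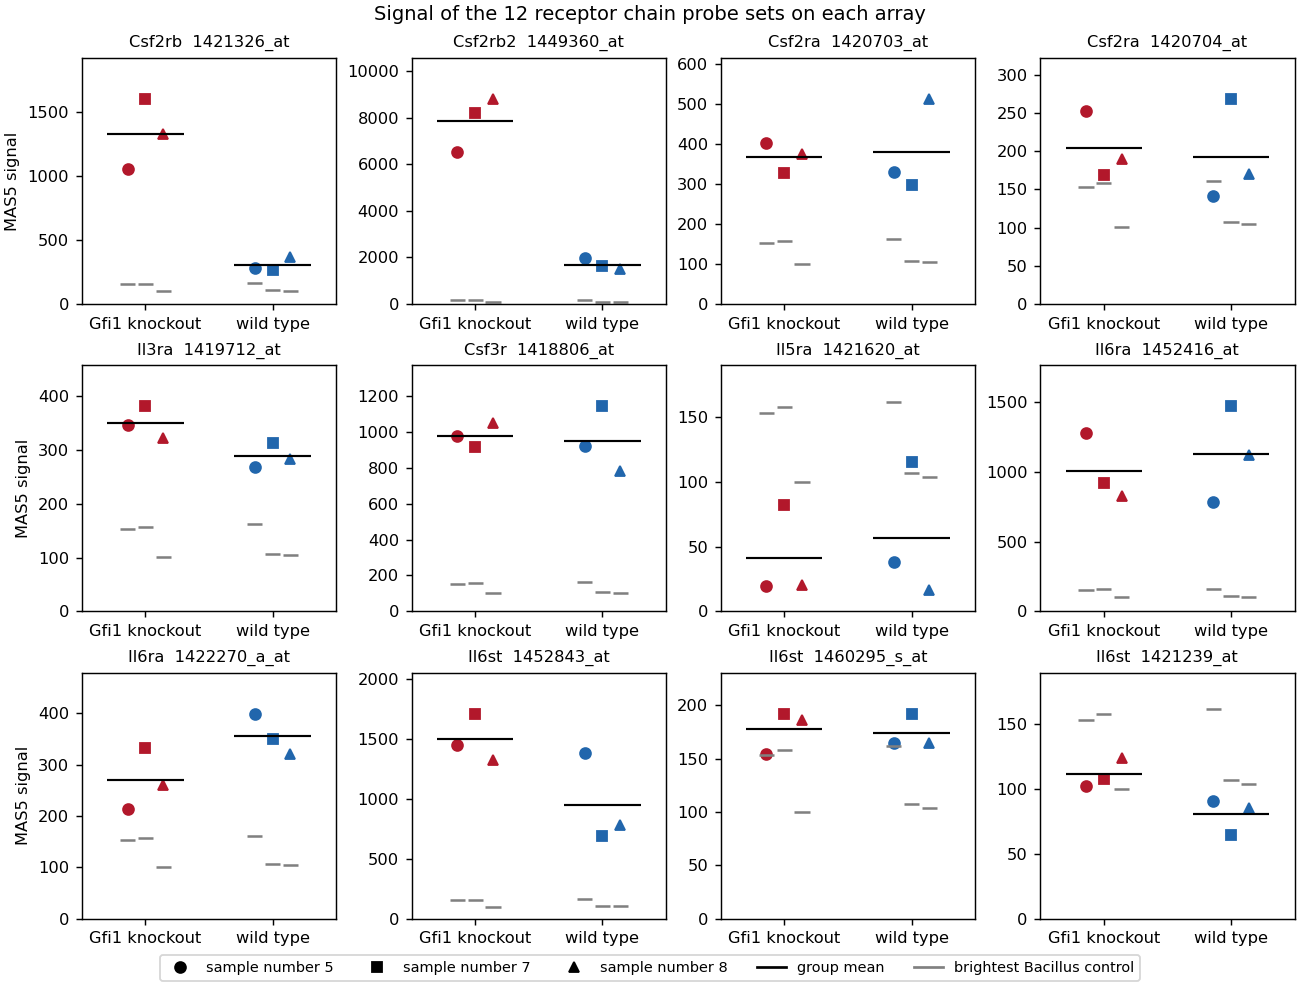
MAS5 signal (arbitrary units, linear axis from 0) of the 12 receptor chain probe sets on each array, with Gfi1 knockout left and wild type right. Symbols give the sample number, black bars the group means of 3 arrays and grey ticks each array's brightest Bacillus control. The groups stand apart by several fold for Csf2rb (means 1327 in knockout and 303 in wild type) and Csf2rb2 (7838 in knockout and 1690 in wild type), and overlap or nearly meet in the other panels.

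Il3ra, the IL-3 receptor alpha chain, read 346, 382 and 323 in knockout samples 5, 7 and 8, against 269, 313 and 284 in wild-type samples 5, 7 and 8. The knockout arrays were all above the wild-type arrays, but the gap between the nearest arrays was small. The mean was 350.0 ± 29.7 in knockout and 288 ± 22.3 in wild-type cells (SD, n = 3 each), a ratio of 1.21, or 0.27 ± 0.24 (SE) as a log2 difference.

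Csf2ra, the GM-CSF receptor alpha chain, was measured by a pair of probe sets. The brighter read 402, 327 and 377 in knockout samples 5, 7 and 8, against 331, 299 and 513 in wild-type samples 5, 7 and 8. The groups overlapped, wild-type array 8 being the highest of all 6, and the difference was -0.01 ± 0.26 (SE). Without wild-type 8 it was 0.22, and without wild-type 7 it was -0.16. The dimmer averaged 204 ± 44.2 in knockout and 193 ± 66.8 in wild-type cells (SD, n = 3 each), with a difference of 0.10, and also overlapped.

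Il5ra, the IL-5 receptor alpha chain, read 19.8, 82.4 and 20.4 in knockout samples 5, 7 and 8, against 38.1, 115 and 16.3 in wild-type samples 5, 7 and 8. It exceeded the controls on 0 of 3 knockout and 1 of 3 wild-type arrays, so neither group has a level to compare. IL-5 receptors act mainly in eosinophils and B-1 cells.

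Csf3r, the G-CSF receptor, read 975, 913 and 1047 in knockout samples 5, 7 and 8, against 923, 1142 and 779 in wild-type samples 5, 7 and 8. The knockout arrays lay within the range of the wild-type arrays. The mean was 979 ± 66.9 in knockout and 948 ± 183 in wild-type cells (SD, n = 3 each), and the log2 difference was 0.06 ± 0.20 (SE). With any 1 array left out it lay between -0.07 and 0.20.

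For both IL-6 receptor chains the groups overlapped on the brightest probe set. Il6st, encoding gp130, read 1449, 1710 and 1324 in knockout samples 5, 7 and 8, against 1380, 689 and 777 in wild-type samples 5, 7 and 8 by its brightest probe set. Wild-type array 5 lay among the knockout arrays, and the other wild-type arrays lay well below them. The mean was 1494 ± 197 in knockout and 948 ± 376 in wild-type cells (SD, n = 3 each), and the difference was 0.71 ± 0.25 (SE). It was 1.01 ± 0.22 (SE) without wild-type 5 and 0.51 without wild-type 7.

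The other Il6st probe sets were much closer to background. One read 154, 192 and 187 in knockout samples 5, 7 and 8, against 165, 192 and 165 in wild-type samples 5, 7 and 8, a log2 difference of 0.03. The groups overlapped there. The dimmest averaged 111 ± 11.1 in knockout and 80.5 ± 13.9 in wild-type samples (SD, n = 3 each), with all knockout values above all wild-type values. It exceeded the controls on 1 of 3 knockout and 0 of 3 wild-type arrays, so no fold is given for it.

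Il6ra, the IL-6 receptor alpha chain, read 1274, 919 and 824 in knockout samples 5, 7 and 8, against 785, 1469 and 1122 in wild-type samples 5, 7 and 8 by the brighter of its probe sets. The groups overlapped throughout, with a difference of -0.14 ± 0.25 (SE). The dimmer had 214, 333 and 261 on knockout arrays against 399.5, 349.7 and 321 on wild-type arrays 5, 7 and 8, a difference of -0.40 ± 0.26 (SE). Knockout array 7 lay inside the wild-type range there, and the remaining knockout arrays lay below it.

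**Figure D2:**
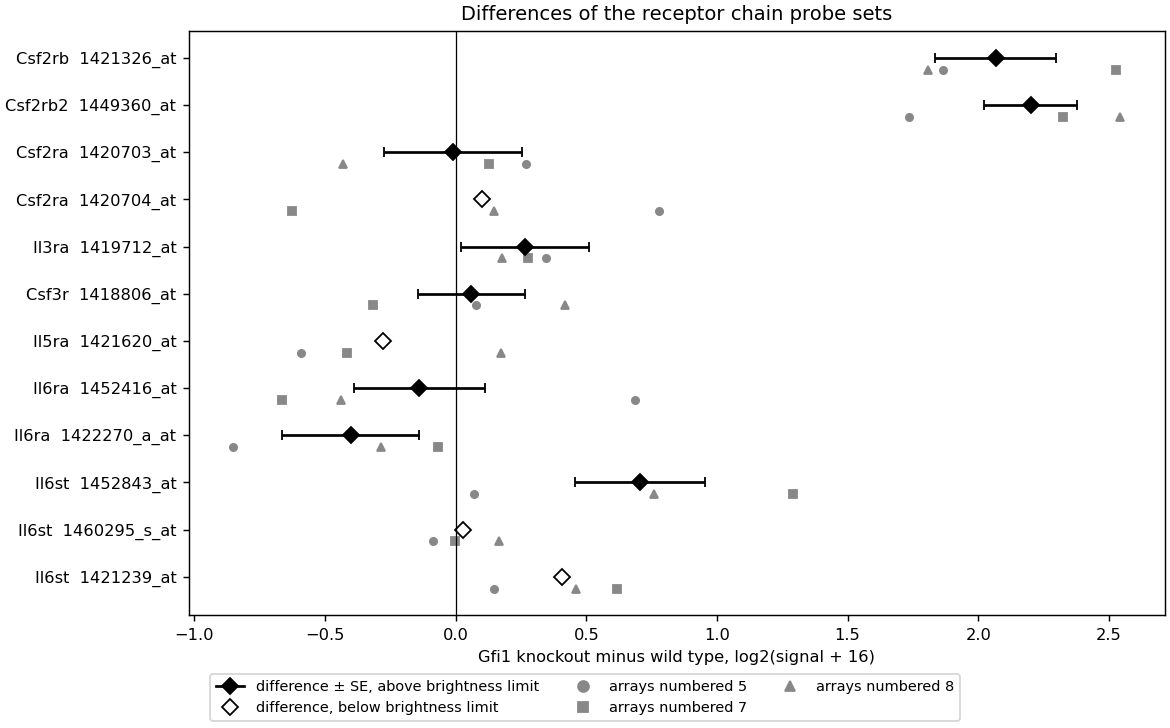
Gfi1 knockout minus wild type on the log2(signal + 16) scale for each receptor chain probe set. Filled diamonds with bars are differences ± SE for probe sets above the brightness limit, open diamonds are probe sets below it, and grey symbols are differences between arrays of the same number. Csf2rb (2.07) and Csf2rb2 (2.20) lie far right of all others, which run from -0.40 to 0.71.

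Of the 12 member probe sets 8, covering 7 genes, were bright enough to be tested in the fit across all probe sets. Csf2rb and Csf2rb2 passed an adjusted p of 0.05 (limma, Benjamini-Hochberg) as higher in knockout, where 1.44% of the 13575 probe sets tested passed in that direction, and 0 members passed as lower, where 2.19% did (limma; 0 at an unadjusted p under 0.05 as well). In either direction 3.63% of all tested passed. Knockout arrays lay wholly above wild-type arrays for 3 of the 8 (11.9% of all tested) and wholly below for 0 (12.1%). The median difference was 0.16 over the 8 and -0.01 over all tested. With wild-type 5 left out the brightest Il6st probe set passed as higher too, and no further member did in any other alternative. Because these values chose the members, nothing is read from these counts.

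Among probe sets with 1 symbol, the profile nearest to Csf2rb2 over the 6 arrays was that of Ccr2, by root-mean-square distance between log2 values centred on each probe set's mean. The distance was 0.25 for Ccr2, a chemokine receptor of inflammatory monocytes, and 0.26 for Csf2rb. Next came Mmp8, the neutrophil collagenase, at 0.31, Socs3, a feedback inhibitor of cytokine receptors, at 0.33, Anxa3, an annexin, at 0.38 and Srd5a3, a polyprenol reductase, at 0.45 by a dimmer probe set. Left out for having several symbols were a probe set of Mrgpra2a and Mrgpra2b at 0.22, nearer than Ccr2, and one of Gm2808 and Tulp4 at 0.32. The probe sets of all 5 genes passed as higher in knockout (limma adjusted p = 0.000495 for Mmp8 to 0.0201 for that of Srd5a3, whose brightest probe set had 0.00543), as a gene near Csf2rb2 by this measure must tend to. Among the remaining members Il6st was nearest at 0.79, and Il3ra stood at 0.99, Csf3r at 1.09, Csf2ra at 1.16 and Il6ra at 1.26 and 1.31.

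**Figure D3:**
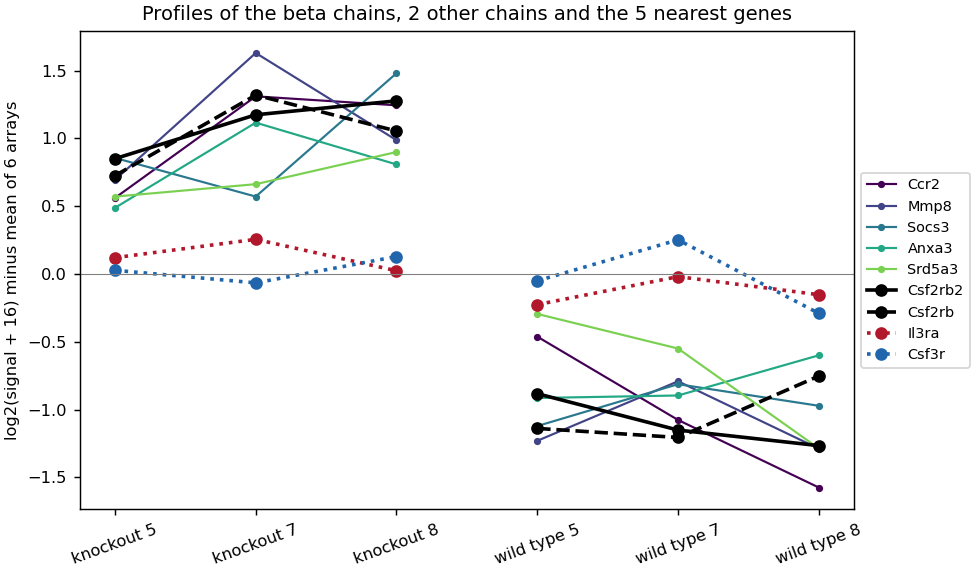
Log2(signal + 16) of Csf2rb2, Csf2rb, Il3ra, Csf3r and the 5 genes nearest to Csf2rb2, minus each probe set's mean over the 6 arrays. Lines only join the points of one gene within a group. Csf2rb follows Csf2rb2 closely (distance 0.26), while Il3ra (0.99) and Csf3r (1.09) lie farther from it.

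In the order of protein-coding genes along chromosome 15 Csf2rb2 and Csf2rb are direct neighbours, and the genes around them, chosen for position, did not pass. Ncf4, the p40 subunit of the NADPH oxidase, lies next to Csf2rb2 and averaged 1314 ± 273 in knockout and 1016 ± 39.1 in wild-type arrays, a difference of 0.35 ± 0.20 (SE; limma adjusted p = 0.369). Ift27 stood at 0.64 ± 0.25 (0.169), Kctd17 at 0.32 ± 0.19 (0.375) and Mpst at -0.27 ± 0.24 (0.595). Pvalb, Cacng2 and Tst were below the brightness limit, and Tex33 had no probe set with its symbol alone.

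Genes that act before and after the receptors were taken from 8 lists of 162 non-member genes, of which 115 were tested by their brightest probe set. Of these, 3 rose, 8 fell and the median difference was -0.04. The shares were 2.61% and 6.96%, against 1.44% and 2.19% of all probe sets tested, and no test of the lists was made. When the shared sample number entered as a block, 13 fell and 3 rose. The 5 added as falls were Fos, Il15ra, Klf4, Elf1 and Ptprc, chosen after their values were seen, with blocked adjusted p of 0.0256 to 0.0399.

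Of the ligands, 3 that signal through gp130 were above the controls on 5 or 6 of the 6 arrays. Clcf1 and Ctf1, which signal through gp130, exceeded the controls on all 6 arrays, with Clcf1 at 329 to 503 in knockout and 397 to 600.3 in wild-type cells and Ctf1 at 301 to 484 in knockout and 438 to 531 in wild-type cells. Lif, another gp130 ligand, exceeded them on 5 of 6. Il3 and Csf2, which encode IL-3 and GM-CSF, Il5, and the gp130 ligands Il6 and Il11 lay at or below the controls on all 6 arrays. Csf3, which encodes G-CSF, read 69.6, 97.1 and 42.4 in knockout samples, against 191, 67.0 and 34.1 in wild-type samples 5, 7 and 8, above the controls on wild-type 5 alone. Of 9 ligand genes on the array 3 were tested and 0 passed (limma; 0 at an unadjusted p under 0.05).

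Of the JAK kinases and STAT factors 9 were tested, and 1 fell. It was Stat4, which relays IL-12, by 0.76 ± 0.18 (SE; limma adjusted p = 0.0360), a call lost in 8 of 13 alternatives, among them each knockout array left out and wild-type 5 or 7 left out. Jak2, the kinase bound by the beta chains, averaged 1934 ± 349 in knockout and 2817 ± 402 in wild-type arrays (SD, n = 3 each), or -0.55 ± 0.19 as a log2 difference, which did not pass (0.136). Jak1 stood at -0.47 ± 0.14 (0.0890), and for both Jak1 and Jak2 all knockout arrays lay below all wild-type arrays. Stat5a and Stat5b, the main relays of IL-3 and GM-CSF, stood at 0.13 ± 0.25 (0.830) and -0.12 ± 0.20 (0.801), though a dimmer Stat5b probe set stood at 0.98 ± 0.35 (0.135). Stat3, the relay of G-CSF and IL-6, stood at 0.16 ± 0.23 (0.761), Jak3 at 0.28 ± 0.18 (0.426) and Tyk2 at 0.15 ± 0.17 (0.692).

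Among 19 negative regulators 1 rose and 1 fell. Socs3, which binds gp130 and the G-CSF receptor and blocks JAK activity, read 778, 636 and 1209 in knockout samples 5, 7 and 8, against 186, 234 and 208 in wild-type samples 5, 7 and 8. It rose by 1.94 ± 0.27 (SE; limma adjusted p = 0.00179, and 0.00175 to 0.0167 over its alternatives), while its dimmer probe sets stood at 1.04 ± 0.42 (0.188) and 1.08 ± 0.34 (0.0954). Socs5 fell by 0.78 ± 0.19 (0.0394), a call lost in 8 of 13 alternatives, among them each array left out except wild-type 5. Ptpn6, the phosphatase Shp1 that shuts off beta chain signals, stood at -0.10 ± 0.16 (0.789). Cish, a STAT5-induced inhibitor of the beta chain receptors, averaged 743 ± 84.3 in knockout and 1019 ± 88.7 in wild-type cells (SD, n = 3 each), or -0.45 ± 0.20 as a log2 difference (0.223). Socs2, another STAT5 target, stood at 0.23 ± 0.23 (0.643).

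Of 16 tested genes known to respond to STAT3 or STAT5 2 rose, Socs3 and Id1. Id1, an inhibitor of helix-loop-helix factors, rose by 1.29 ± 0.27 (SE; limma adjusted p = 0.0209). Pim1, a survival kinase, stood at 0.22 ± 0.19 (0.581), Bcl2l1, encoding the survival protein Bcl-xL, at 0.16 ± 0.19 (0.717) and Mcl1 at -0.38 ± 0.13 (0.131). Among the 6 probe sets of Mcl1, 1 dimmer one passed as lower at -0.51 ± 0.13 (0.0490). Id1 lost its call without knockout 5, knockout 7 or wild-type 7, and without the brightness filter.

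Of 26 tested adaptors and downstream kinases 1 fell and 0 rose. Gab1, a docking protein for PI3-kinase and Shp2, read 409, 426 and 416 in knockout samples, against 982, 1351 and 1332 in wild-type samples 5, 7 and 8, a fall by 1.50 ± 0.21 (SE; limma adjusted p = 0.00193). Its dimmer tested probe set fell by 1.14 ± 0.26 (0.0303). Gab2, the related protein that acts with the common beta chain, stood at -0.65 ± 0.25 (0.162).

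Of 19 other tested class I and II cytokine receptor genes 0 rose and 1 fell. Il7r, the IL-7 receptor alpha chain, read 649, 596 and 381 in knockout samples, against 2933, 2391 and 1365 in wild-type samples 5, 7 and 8, a fall by 1.97 ± 0.28 (SE; limma adjusted p = 0.00217). Epor, the erythropoietin receptor, stood at 0.05 ± 0.25 (0.947) and Il4ra at 0.15 ± 0.23 (0.791). Lifr, a partner of gp130, was below the brightness limit. Its brightest probe set had 144, 140.3 and 75.3 on knockout arrays, against 215, 456 and 158 on wild-type arrays 5, 7 and 8. The controls were exceeded on 0 of 3 knockout and 3 of 3 wild-type arrays. With knockout arrays raised to the controls, the bound on the group means was 1.77-fold lower in knockout, which was not tested. Wild-type array 8 was level with the control of knockout array 7 (158). A dimmer probe set went the other way, averaging 67.2 in knockout and 20.6 in wild-type arrays, and another averaged 50.5 in knockout and 87.3 in wild-type arrays.

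Of 9 tested receptor tyrosine kinases 1 rose and 2 fell. Csf1r, the M-CSF receptor, rose by 0.69 ± 0.17 (SE; limma adjusted p = 0.0443), and its dimmer probe sets rose by 1.13 ± 0.22 and 1.11 ± 0.21. Flt3 fell by 1.19 ± 0.19 (0.00515) and Kit by 0.71 ± 0.17 (0.0381). The call of Kit was lost in 8 of 13 alternatives, among them each array left out except wild-type 5. The brightest probe set of Csf1r lost its call in 9 of 13, among them each array left out except wild-type 7.

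Of 17 tested transcription factors linked to myeloid receptor genes 0 rose and 2 fell, Ets1 by 1.19 ± 0.22 (SE; limma adjusted p = 0.0120) and Egr1 by 1.12 ± 0.22 (0.0142). Ets1 lost its call without wild-type 7, and Egr1 in 5 of 13 alternatives, among them knockout 7, knockout 8 or wild-type 7 left out. Spi1, encoding PU.1, stood at 0.29 ± 0.21 (0.494), Runx1 at -0.46 ± 0.22 (0.277) and Gata2 at 0.23 ± 0.17 (0.519). Cebpa, encoding C/EBP alpha, was too dim for the test. It read 180.0, 133 and 340.4 in knockout samples, against 50.1, 45.4 and 83.6 in wild-type samples 5, 7 and 8. The controls were exceeded on 2 of 3 knockout and 0 of 3 wild-type arrays. With wild-type arrays raised to the controls, the bound on the group means was 1.58-fold higher in knockout, which was not tested. Knockout array 7 lay below its own control (158) and that of wild-type array 5 (162), and knockout array 8 was the highest.

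**Figure D4:**
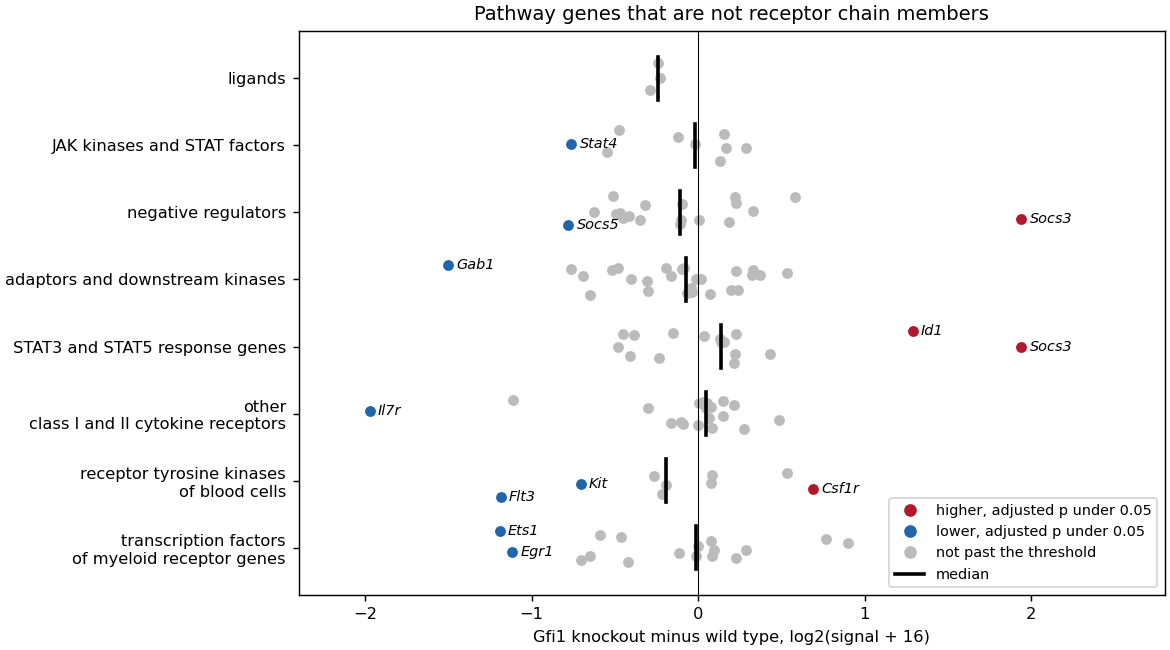
Gfi1 knockout minus wild type on the log2(signal + 16) scale for tested pathway genes outside the receptor chain set, by list. Each point is a gene's brightest probe set, red and blue mark an adjusted p under 0.05, black bars are list medians, and vertical scatter has no meaning. Socs3 (1.94) and Id1 (1.29) lie highest, and Il7r (-1.97) and Gab1 (-1.50) lowest.

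Markers of myeloid progenitors and of more mature cells also differed between the arrays on which Csf2rb2 and Csf2rb differed. Of 12 tested granulocyte-monocyte progenitor markers 7 rose and 0 fell, with a median of 1.15, and their summed signal was 93062 to 96729 in knockout and 43924 to 72794 in wild-type arrays. Wild-type array 8 stood apart with the highest wild-type sum, and its signal was 10263 for the protease gene Ctsg, against 3303 and 2871 on wild-type arrays 5 and 7, and 2079 for Elane, neutrophil elastase, against 364 and 427. Csf2rb2 had its lowest signal of the 6 arrays there, at 1495. Csf2rb went the other way among wild-type arrays, with 368 there against 278 and 264 on wild-type arrays 5 and 7. Without it, a setting chosen after the data were seen, 8 markers rose, Elane being the one added, and the log2 differences were 2.12 for Csf2rb2 and 2.21 for Csf2rb. Of 11 monocyte and macrophage markers 4 rose and 0 fell, with sums of 27321 to 28277 in knockout and 15892 to 20082 in wild-type arrays. Anxa3 among the rising progenitor markers and Ccr2 among the rising monocyte markers were named above for profiles near Csf2rb2. Csf1r, another rising monocyte marker, lost its call in 9 of 13 alternatives. In such bulk samples more cells of a type and more RNA per cell cannot be told apart. The part of these cells in the beta chain values was not tested.

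Neutrophil markers lay mostly the other way, with 1 of 10 tested rising and 5 falling. The riser was Mmp8, named above for its profile near Csf2rb2, and Ltf, Camp, Ngp, S100a8 and S100a9 fell. The sums were 8546 to 18124 in knockout and 23174 to 45716 in wild-type arrays. Of 6 mast cell and basophil markers 1 rose (Hdc, the histamine-forming enzyme) and 0 fell, with sums of 8813 to 11460 in knockout and 5461 to 7871 in wild-type arrays, and Mcpt4 and Il13 lay at or below the controls on all arrays. Of 3 eosinophil markers 0 passed (limma; 1 at an unadjusted p under 0.05), with sums of 1138 to 1432 in knockout and 667 to 1808 in wild-type arrays, and Prg3 and Alox15 at or below the controls. The part of these lists in the beta chain values was not tested either.

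For the other lineages 0 of 7 tested erythroid, 0 of 5 megakaryocyte, 0 of 2 T and NK cell and 0 of 5 dendritic cell markers passed (limma; 3, 1, 2 and 0 at an unadjusted p under 0.05). The summed erythroid signal was 4897 to 5779 in knockout and 6297 to 16598 in wild-type arrays. Of 9 B and plasma cell markers 2 rose (Igha and Ighg3) and 0 fell, with sums of 67321 to 145116 in knockout and 63094 to 75885 in wild-type arrays, and Pax5 at or below the controls on all arrays. Knockout array 5 held the highest sum and stood apart from 67321 and 74000 on knockout arrays 7 and 8, with Igha at 60974 there, against 11539 and 22521. Without that array, also chosen after the data were seen, Igha and Ighg3 still passed. The log2 differences were then 2.33 for Csf2rb2 and 2.22 for Csf2rb. Igha at 11539 and 22521 on knockout arrays 7 and 8 still lay above its 2775 to 6418 in wild-type arrays. Leaving out knockout 5 thus did not remove that signal, and its part in the beta chain values was not tested.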

How the data were processed

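The authors' deposited table holds linear intensity, a single MAS5 signal for each probe set on an array, per the submitters' processing notes, which give no version or settings. Each array was already scaled, with a mean after trimming 2% from each end of 1000.33 to 1000.37. No detection calls were used, and the number of arrays limits the precision. Biotin-labelled cRNA came from 2 rounds of amplification, per the labels' protocols.

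The 64 AFFX controls were left out of 22690 probe sets. A probe set was named where GEO's platform annotation gave exactly 1 symbol (20380, with 691 several and 1555 none). That annotation can be old. From log2(signal + 16), with no further normalization, limma 3.58.1 in R 4.3.3 (lmFit, eBayes with trend, two-sided) fitted knockout minus wild type over 6 arrays for the 13575 probe sets (60%) with the highest mean log2 value, above a signal of about 198. P-values were adjusted by Benjamini-Hochberg over all of them at 0.05. The script was tested on simulated data. Folds on this scale understate changes of dim probe sets. The brightest of 27 Bacillus control probe sets on each array was the level for background, and a group with 0 arrays above it is given a bound, its arrays raised to that level, or no fold.

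The members and gene lists were chosen with earlier results of these data known. Beside the members, the text names up to 4 passing genes per pathway list with the smallest p, a fixed set of pathway genes (some only within counts), and the 5 nearest profiles. Pathway genes are given by their brightest probe set, and the nearest profiles by the probe set that was nearest. Chromosomal order came from RefSeq GRCm38.p6.

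Whether the labels' numbers 5, 7 and 8 pair the samples was examined by correlating each array's residuals about its group mean. The correlations were 0.159, 0.168 and 0.238 for equal numbers and -0.134 to -0.0307 for unequal ones. Residuals cancel within a group, so positive values for equal numbers push the unequal ones down, and the unequal ones are no separate evidence. Because of the values for equal numbers, the number was also fitted as a block. Other alternatives were no brightness filter, pseudocounts of 1 and 64, median centring, quantile normalization, eBayes without trend, each array left out, and, for list counts, averaged probe sets.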

Additional observations from a re-analysis of the deposited data

How the results depend on the processing

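The differences of all 12 member probe sets moved by less than the spread between replicates in the 13 alternatives run. Leaving out 1 of 3 arrays could hardly move a mean by more, so nothing is read from this. Some small differences changed sign, among them Il5ra (-0.76 to 0.27) and Csf3r (-0.07 to 0.20). So did the brighter probe sets of Csf2ra (-0.16 to 0.22) and Il6ra (-0.37 to 0.07). Csf2rb2 stayed between 2.11 and 2.33 and Csf2rb between 1.91 and 2.22 on the log2 scale. The counts of calls varied between the alternatives. Over all probe sets, against 196 higher and 297 lower, no brightness filter gave 69 and 119, eBayes without trend gave 57 and 124, the replicate block gave 320 and 479, and median centring gave 193 lower. With 1 array left out the higher calls numbered 34 (without knockout 8) to 266 (without wild-type 8) and the lower calls 90 (without wild-type 7) to 282 (without wild-type 8). Lower by more than 1.5 times were also the counts without knockout 5 (102 and 184) and knockout 7 (66 and 131), and for higher calls without wild-type 5 (126) and wild-type 7 (64), and for lower calls without knockout 8 (100).

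For pathway genes, against 3 higher and 8 lower, no filter gave 1 and 4, median centring 5 lower, eBayes without trend 4 lower and the replicate block 13 lower. With 1 array left out they numbered 1 (without knockout 7) to 2 higher and 3 (without wild-type 7) to 8 lower, with 5, 4 and 4 lower without knockout 5, 7 and 8. The block changed no other call among the genes named.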
